A study of Mus musculus with 4 samples.

Results

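The amino acid and peptide transporters of mouse small intestine were followed in HNF4 null and control animals as a group of 44 genes, out of 12393 genes with a probe set of their own on the array. Members were taken by gene symbol alone: every gene whose symbol begins with Slc1a, Slc3a, Slc6a, Slc7a, Slc36a, Slc38a or Slc43a, together with the peptide transporter Slc15a1. They are covered by 68 probe sets, and each gene is represented by the probe set with the highest mean over the 4 arrays. Only the brighter probe sets were tested: the lowest 30% by mean log2 signal were dropped, and 29 of the 44 genes remained. That mean is over both groups, so the count of 29 describes signal on the array and is not evidence of a change.

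RNA came from the small intestine of 4 mice aged 1 month, with 1 array for each mouse. Both null animals, a male and a female, carried a loxP allele of HNF4 opposite a minus allele, plus villin-Cre. The controls differed from each other: the female had a loxP allele opposite a wild-type allele with villin-Cre, and the male had the loxP allele opposite a minus allele without Cre. A loxP allele was thus shared by the null and control animals, and the minus allele by all but the control female. The villin promoter drives Cre in intestinal epithelium, so other cells of the gut wall keep the loxP allele. The labels give neither the segment of intestine nor the HNF4 gene that was targeted. They name separate animals without saying whether any were littermates. Among the controls, sex and genotype cannot be told apart.

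Median deposited intensities per array were between 43.2 and 53.3. The null male had the lowest median, and its correlations with the other arrays across probe sets (0.927 to 0.946) were below those among the other 3 arrays (0.955 to 0.963). Neither HNF4 gene had a lower mean in the null animals. The 4 Hnf4a probe sets differed by 0.08 to 0.32 and the 2 Hnf4g probe sets by 0.12 and 0.16 on the log2 scale. All were above 0, and limma gave each an adjusted p of 1. For Hnf4a the differences were 0.23 to 0.62 between the males and −0.24 to 0.10 between the females. These values do not check the labels, because which part was deleted is not given in the sources used here. Transcripts that an animal lacks, namely Y-linked genes in females and Xist in males, gave deposited intensities from −2.23 to 34.4 with a median of 13.4 over 18 readings. These serve below as a guide to what an absent transcript reads on these arrays. Where a member's readings fall within that range, it is not shown to lie above background.

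Absorption of dietary protein ends at the enterocyte, which takes up amino acids and small peptides through the brush border and passes amino acids to the blood through the basolateral membrane. Uptake at the brush border is largely driven by sodium or protons, and exchangers built of a heavy chain (Slc3a1 or Slc3a2) and an Slc7 light chain move amino acids at both membranes. Other members of these families recover neurotransmitters, osmolytes such as taurine and creatine, or amino acids for the cell's own use. HNF4 factors are nuclear receptors that control many genes of absorptive epithelium.

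No member passed the threshold of 0.05 after adjustment over all probe sets in limma, where 2 of 9546 genes tested did (0.021%) and 2 of 15838 probe sets (0.0126%). Every member's adjusted p was 1 in that fit, and adjusted p values below are from limma. With sex added as a block, 2 of the 29 members passed, Slc6a20a and Slc6a13, beside 0.262% of all genes and 0.183% of probe sets. At an unadjusted p under 0.05 there were 3 members, Slc6a20a, Slc1a1 and Slc7a8, all lower in the null animals, which is 10.3% of the 29 tested beside 3.23% of all genes, 3.03% of probe sets and, for lower genes alone, 1.76% of genes. A difference of at least 2-fold was reached by 2 members, Slc6a20a and Slc6a13, and by 0.754% of all genes. Both null arrays lay below both control arrays for 12 of the 29 members (41.4%, against 15.2% of all genes) and above them for 4 (13.8%, against 14.4%). Differences were below 0 in 18 members (62.1%, against 49.7% of all genes). The males and the females had the same sign in 13 members below 0 and 6 above, shares of 44.8% and 20.7%, against 24.2% and 24% of all genes and 48.2% for both signs. The median null minus control difference over the 29 was −0.13 on the scale of log2(intensity + 16), with 0.00 over all genes tested. It was −0.15 between the males and −0.22 between the females. These counts are over genes that share the same RNA and are descriptions. Fewer cells of a type and less RNA per cell cannot be told apart in such tissue.

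**Figure D1:**
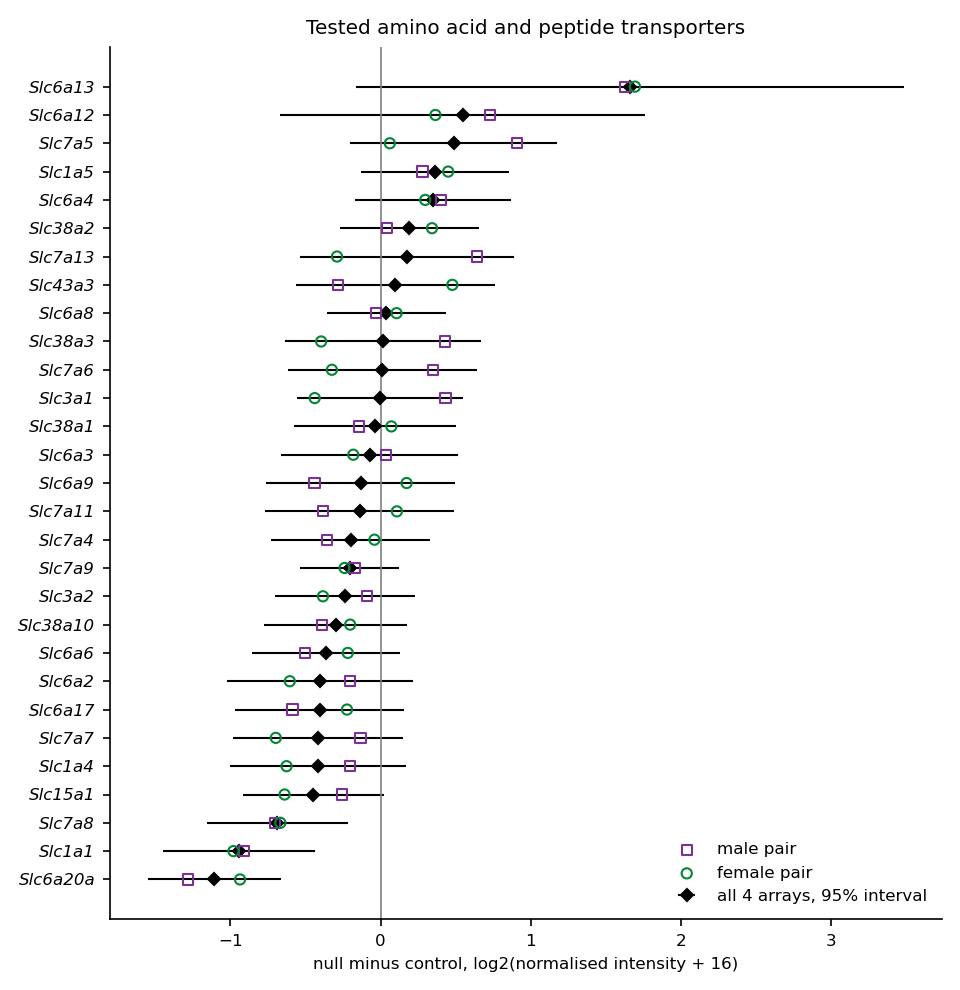
Null minus control differences in log2(normalised intensity + 16) for the 29 transporter genes tested, ordered by size. Diamonds are the limma estimates over 4 arrays with 95% intervals, squares the male pair and circles the female pair. The intervals of Slc6a20a, Slc1a1 and Slc7a8 lie below 0 and that of Slc6a13, the highest estimate, spans 0.

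Of the 6 brush border uptake carriers tested, 4 were lower in both null animals than in both controls, 1 was higher in both and Slc3a1 differed by close to 0. These are shares of 66.7% lower and 16.7% higher without overlap, against 15.2% and 14.4% of all genes. The imino acid and glutamate carriers differed most, and none passed the threshold without the sex block. The median of the 6 was −0.33, with −0.21 between the males and −0.54 between the females. Slc6a20a, which takes up proline and related imino acids with sodium, had deposited intensities of 198 and 260 in the null male and female, against 506 and 544 in the control female and male. The groups did not overlap. After normalization Slc6a20a averaged 7.96 ± 0.15 in null and 9.07 ± 0.10 in control animals (SD, n = 2 each), a difference of −1.11 (SE 0.19, 95% interval −1.55 to −0.67), or 2.16-fold. The adjusted p in limma was 0.0485 with sex as a block. The difference was −1.28 between the males and −0.94 between the females. The neighbouring gene Slc6a20b, a close relative of Slc6a20a on chromosome 9 with no protein-coding gene between them, read 12.0 and 14.0 in null animals and 16.2 and 18.0 in controls, within the range of absent transcripts, and was not tested.

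Slc1a1, the carrier of glutamate and aspartate, showed a difference of similar size on its main probe set. That probe set read 51.5 and 65.6 in the null male and female, against 138 and 124 in the control female and male. Again the groups did not overlap. The difference was −0.94 (SE 0.21, 95% interval −1.45 to −0.44), 1.92-fold, and limma with sex as a block gave an adjusted p of 0.366. Both pairs gave nearly the same value, −0.91 for the males and −0.98 for the females. The other probe sets for Slc1a1 stood at −1.15 and −0.48, so all 3 pointed the same way. The probe set at −1.15 read 14.3 and 25.6 in the null male and female, inside the range of absent transcripts. In the control female and male it read 84.1 and 49.6. On the probe set at −0.48 the males differed by −0.07 and the females by −0.88.

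Slc15a1 is the proton-driven carrier of di- and tripeptides. It read 467 and 365 in the null male and female, against 577 and 576 in the control female and male. The controls were nearly equal and both null arrays were below them, the female one more. The difference was −0.45 (SE 0.20, 95% interval −0.92 to 0.02), at −0.26 between the males and −0.64 between the females. Without the null male it was −0.65 and without the null female it was −0.24.

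Slc7a9 and Slc3a1 encode the light and heavy chain of 1 exchanger, which takes in cystine and cationic amino acids and is defective in human cystinuria. The 2 chains did not show the same pattern. Slc7a9 read 800.1 and 816 in null animals and 972 and 925 in controls, a difference of −0.21 (SE 0.14, 95% interval −0.54 to 0.13) without overlap of the groups. Slc3a1 read 670.0 and 538 in the null male and female, against 763 and 504 in the control female and male. For Slc3a1 the spread within each group was wide, the groups overlapped, and the difference was −0.003 (SE 0.23, 95% interval −0.55 to 0.55). Its value was 0.43 between the males and −0.44 between the females.

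Slc1a5, an exchanger of glutamine and other neutral amino acids, was the 1 tested uptake carrier with higher values in the null animals, at 122 and 157 against 106 and 109 in controls. The difference was 0.36 (SE 0.21, 95% interval −0.13 to 0.86), and the groups did not overlap. Slc6a14, a broad carrier of neutral and cationic amino acids, read 10.6 and 21.0 in null animals and 7.77 and 15.7 in controls, within the range of absent transcripts, and was not tested. Slc6a19 and Slc36a1, further carriers of neutral amino acids at the brush border, were not analysed here.

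**Figure D2:**
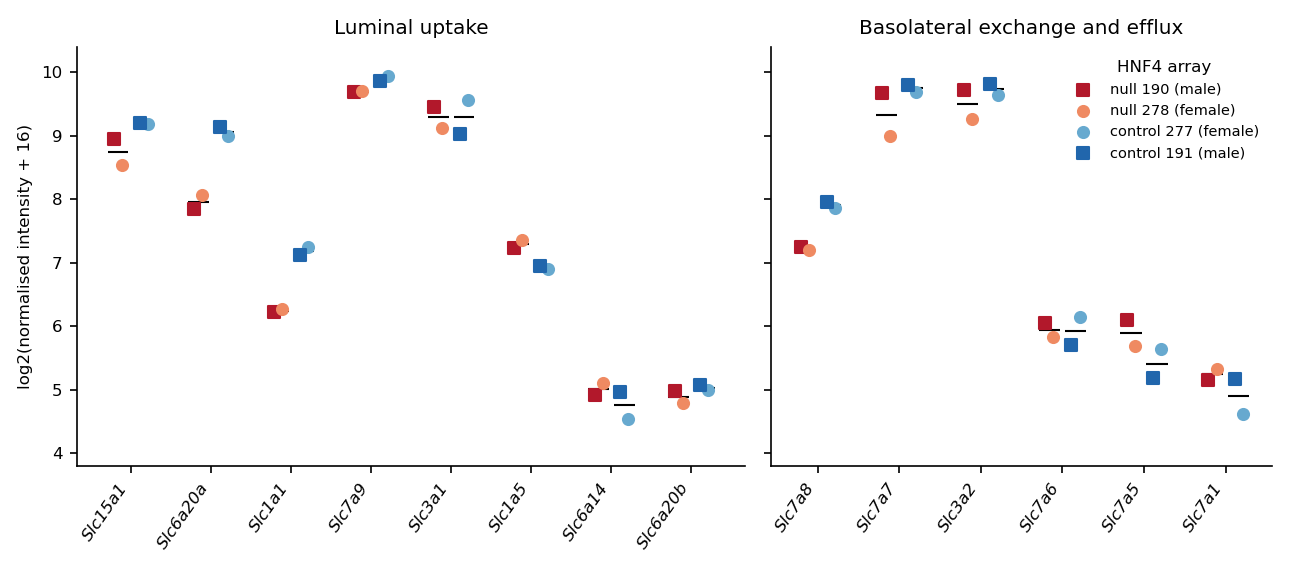
Level of each luminal and basolateral transporter in log2(normalised intensity + 16) on the 4 arrays, with squares for males, circles for females and bars for group means. Slc6a20a, Slc1a1 and Slc7a8 are lower in both null arrays than in both controls, while Slc3a1 and Slc7a6 overlap.

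The promoter windows of Slc6a20a and Slc1a1 are given as those of the carriers with the smallest p, and that of Slc3a1 because it was the only member window with a match to the HNF4 motif. Windows are RefSeq's on GRCm38.p6, run from 250 bases before the annotated start to 50 after it, and were found for 29 of the 44 members. The letters CAAAGTCCA and CAAAGGTCA were searched on both strands. CAAAGTCCA was found in 1 of 48 member windows and in 0.475% of all windows, and CAAAGGTCA in none of the member windows and in 0.478% of all. The Slc6a20a window lies at chr9:123678783-123679082 on the minus strand, the Slc1a1 window at chr19:28834885-28835184 and the Slc3a1 window at chr17:85028097-85028396, both on the plus strand. Sequences run 5′ to 3′, and capitals mark the match, which starts 39 bases before the start of Slc3a1.
Slc6a20a: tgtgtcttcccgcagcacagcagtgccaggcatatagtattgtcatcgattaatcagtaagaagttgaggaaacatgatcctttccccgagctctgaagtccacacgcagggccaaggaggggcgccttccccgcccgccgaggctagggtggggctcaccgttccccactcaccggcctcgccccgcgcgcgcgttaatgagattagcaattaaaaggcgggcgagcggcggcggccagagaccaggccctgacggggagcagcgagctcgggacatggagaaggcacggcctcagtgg
Slc1a1: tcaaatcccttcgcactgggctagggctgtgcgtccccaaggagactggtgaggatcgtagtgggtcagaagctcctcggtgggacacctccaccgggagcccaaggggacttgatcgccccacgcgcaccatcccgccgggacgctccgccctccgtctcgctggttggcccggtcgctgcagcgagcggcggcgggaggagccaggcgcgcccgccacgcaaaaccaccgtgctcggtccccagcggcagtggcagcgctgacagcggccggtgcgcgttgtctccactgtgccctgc
Slc3a1: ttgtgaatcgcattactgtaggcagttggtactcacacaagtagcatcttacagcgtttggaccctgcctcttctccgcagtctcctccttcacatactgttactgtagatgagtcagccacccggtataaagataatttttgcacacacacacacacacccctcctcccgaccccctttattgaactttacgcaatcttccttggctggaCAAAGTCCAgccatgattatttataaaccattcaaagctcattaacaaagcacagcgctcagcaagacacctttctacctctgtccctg
Slc3a1, whose window held the match, differed by −0.003 over the 4 arrays, at 0.43 between the males and −0.44 between the females. The windows of Slc6a20a and Slc1a1 held neither motif. Whether HNF4 acts on any of these genes was not tested. A match is a string of letters here and not a binding site.

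On the basolateral side, the light chain Slc7a8 was lower in the null animals and the other exchangers differed less. The median over the 5 tested was −0.24, which is the value of Slc3a2, at −0.09 between the males and −0.38 between the females. It was −0.47 without the null male and −0.0071 without the null female. Slc7a8, a neutral amino acid exchanger, had deposited intensities of 125 and 139 in the null male and female, against 224 and 233 in the control female and male. Within each group the arrays were close, and the groups lay apart. The difference was −0.69 (SE 0.20, 95% interval −1.16 to −0.22), 1.61-fold, with −0.71 between the males and −0.67 between the females. With sex as a block its adjusted p in limma was 0.61. Slc7a7, which hands cationic amino acids to the blood in exchange for neutral ones and is mutated in human lysinuric protein intolerance, read 784 and 497 in null animals against 819.9 and 883 in controls. Only the female null array was far below the controls, and the difference of −0.42 (SE 0.24, 95% interval −0.98 to 0.15) was −0.75 without the null male and −0.077 without the null female.

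Slc3a2 is the heavy chain that carries Slc7a5, Slc7a6, Slc7a7 and Slc7a8 to the membrane. It read 823 and 596 in the null male and female, against 803 and 889.6 in the control female and male. As for Slc7a7, the female null array was the low one, and here the groups overlapped. The difference was −0.24 (SE 0.20, 95% interval −0.71 to 0.23), −0.47 without the null male and −0.0071 without the null female. Slc7a5, the large neutral amino acid exchanger of dividing cells, stood at 45.9 and 39.2 in null animals and 34.1 and 20.7 in controls, with control readings inside the range of absent transcripts, and differed by 0.49 (SE 0.29). Slc7a6, a relative of Slc7a7, read 44.5 and 44.3 in null animals and 56.1 and 36.5 in controls, a difference of 0.01 (SE 0.26). Slc7a1, a carrier of cationic amino acids, read 15.9 and 27.1 in null animals and 9.04 and 20.2 in controls and was not tested. Slc43a2 and Slc43a1 were not analysed here.

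The Slc38 family, sodium-driven carriers of glutamine and other small neutral amino acids, was centred near 0, with a median of −0.01 over 4 genes. Slc38a2 read 230.05 and 289 in null animals and 221 and 239.9 in controls and differed by 0.19 (SE 0.19), without overlap on the normalised scale. Slc38a1 at −0.04 and Slc38a3 at 0.02 overlapped between the groups. Slc38a10 had 7 probe sets, all tested, that did not point the same way. Its main probe set read 132 and 163 in the null male and female, against 185 and 196 in the control female and male, a difference of −0.30 (SE 0.20), and the 7 ranged from −0.30 to 0.62 with 3 above 0. Their mean was 0.05.

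Among the remaining Slc7 genes 3 were tested, with a median of −0.14. Slc7a4 differed by −0.20, Slc7a11, which brings in cystine in exchange for glutamate, by −0.14, and Slc7a13, an aspartate and glutamate carrier of kidney, by 0.18. Their deposited intensities were between 20.8 and 91.8. Slc1a4, a serine and alanine exchanger, read 32.1 and 36.2 in null animals against 60.8 and 45.5 in controls. The null male reading was inside the range of absent transcripts. The groups did not overlap, and the difference was −0.42 (SE 0.24). Slc43a3, a nucleobase carrier despite its family name, differed by 0.10 (SE 0.28).

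Of the neurotransmitter and osmolyte carriers of the Slc6 family, 9 were tested, with a median of −0.07 and 5 below 0. Slc6a13, a carrier of GABA and taurine known from liver and kidney, had the highest difference of all members, 1.66. Deposited intensities were 638 and 176 in the null male and female, against 41.2 and 201 in the control female and male. The groups overlapped, since the null female was below the control male, and within each group the male was far above the female: by 1.87 between the null animals and 1.93 between the controls on the log2 scale. Within each sex the null animal was higher, by 1.63 between the males and 1.69 between the females. The result therefore depends on the model: over the 4 arrays the standard error was 0.76, the 95% interval −0.16 to 3.49 and the adjusted p 1 in limma, and with sex as a block the adjusted p was 0.0127. In the blocked fit Slc6a13 and Slc6a20a were the 2 members called, of 29, beside 0.262% of all genes. That fit has 1 residual degree of freedom per gene, and sex cannot be told apart from anything else that the animals of 1 sex share. Leaving out 1 animal at a time gave 0.69 without the control female, 0.73 without the null male, 2.60 without the null female and 2.63 without the control male.

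Slc6a12, the betaine and GABA carrier, is the next protein-coding gene to Slc6a13 on chromosome 6 and ordered the arrays the same way. It read 111 and 42.1 in the null male and female, against 26.9 and 67.9 in the control female and male. Its difference of 0.55 had a standard error of 0.51, with 0.73 between the males and 0.37 between the females, and it was −0.13 without the null male. The Slc38a10 probe set with the highest difference, 0.62, shared that order too. It read 78.4 and 17.5 in the null male and female, against 12.9 and 32.1 in the control female and male. Of these, 17.5, 12.9 and 32.1 lay inside the range of absent transcripts, as did the 26.9 of Slc6a12. The order among such readings is not shown to reflect signal. The other 6 Slc38a10 probe sets did not share that order. In all, 4 of the 68 member probe sets had this order (5.88%, against 3.05% of all probe sets), the fourth being a second probe set of Slc6a6, and other orders were held by up to 8. The order was noticed after the values were seen, and what moves with it was not tested.

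**Figure D3:**
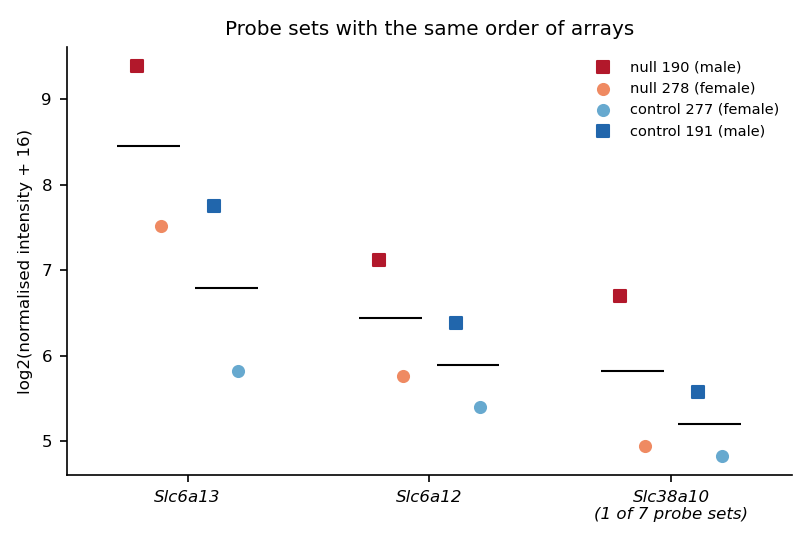
Levels in log2(normalised intensity + 16) on the 4 arrays for Slc6a13, its neighbour Slc6a12 and the Slc38a10 probe set with the highest difference, with squares for males, circles for females and bars for group means. In each, the null male is highest, then the control male, the null female and the control female. For the Slc38a10 probe set, all deposited readings but that of the null male were inside the range of absent transcripts.

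Slc6a4, the serotonin transporter, by which enterocytes clear serotonin released in the mucosa, read 332 and 282 in null animals and 223 and 261 in controls. Both null arrays were above both controls, and the difference was 0.35 (SE 0.22, 95% interval −0.17 to 0.87). The taurine carrier Slc6a6 read 136 and 163 in null animals against 186 and 219 in controls on its main probe set, a difference of −0.36 (SE 0.21), while its second tested probe set gave 0.22. Slc6a17, a carrier of neuronal vesicles, read 38.8 and 51.4 in null animals and 59.2 and 75.2 in controls, a difference of −0.41 (SE 0.24), and the noradrenaline transporter Slc6a2 differed by −0.40 (SE 0.26). Slc6a2 read 27.3 and 23.7 in null animals, inside the range of absent transcripts, and 40.6 and 39.4 in controls. The summed intensity of the measured enteric neuron and glia markers was 410.2 and 362 in null animals and 389.5 and 379 in controls. Of the 8 markers in that sum, 5 were too dim to pass the filter, so it does not show whether neuronal content differed. Slc6a8, the creatine carrier, read 558 and 538 in null animals and 515 and 577 in controls and differed by 0.04 (SE 0.16, 95% interval −0.36 to 0.43). The glycine carrier Slc6a9 differed by −0.13 and the dopamine transporter Slc6a3 by −0.07.

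Several probe sets for 1 gene were tested for 6 members, and their signs differed in 4: Slc38a10, Slc6a6, Slc6a8 and Slc6a9. In Slc6a8 the main probe set gave 0.04 and the other −0.16, and in Slc6a9 they gave −0.13 and 0.03. Slc1a1 and Slc7a4 were the 2 members with all 3 probe sets below 0. For Slc7a4 these ran from −0.21 to −0.06, each smaller than its standard error.

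**Figure D4:**
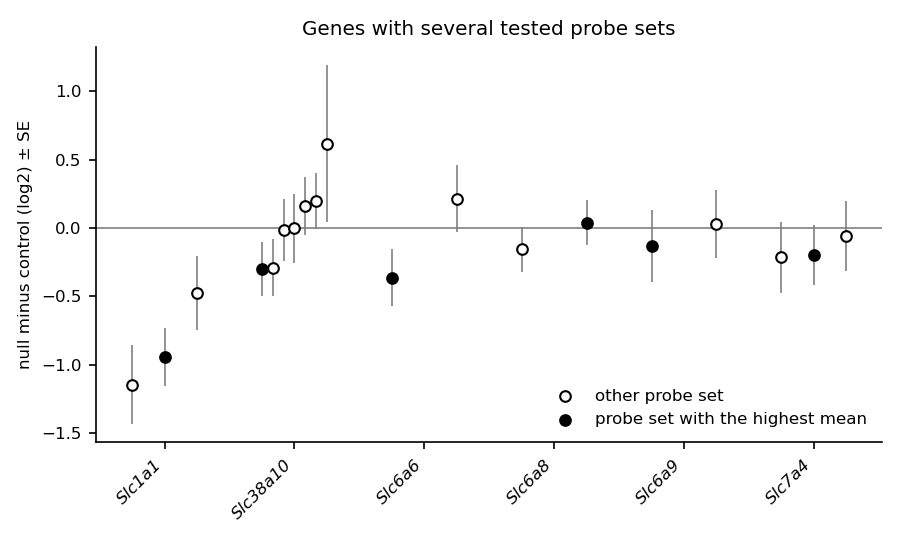
Null minus control difference in log2 with its standard error for each tested probe set of the 6 members that have several. Filled points are the probe sets with the highest mean. All 3 of Slc1a1 and all 3 of Slc7a4 lie below 0, and the 7 of Slc38a10 fall on both sides.

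The 15 members left out by the filter had deposited intensities from −37.6 to 49.995, with a median of 12.7, below the median of the readings of absent transcripts. They were Slc6a14 and Slc6a20b among uptake carriers, Slc7a1 on the basolateral side, the glutamate transporters of nervous tissue Slc1a2, Slc1a3 and Slc1a6, the neuronal and renal Slc6a5, Slc6a15 and Slc6a18, the further Slc7 genes Slc7a2, Slc7a3, Slc7a10 and Slc7a12, and Slc38a4 and Slc38a5. Nearest to the limit, Slc6a2 (mean 5.59) and Slc7a11 (5.63) were inside, and Slc38a4 (5.36) and Slc1a3 (5.29) outside, on the log2 scale.

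Peptidases that supply these carriers were lower in the null animals for 12 of the 13 tested, none past the threshold in limma. Their median was −0.28, at −0.15 between the males and −0.53 between the females, and 9 of the 13 did not overlap between the groups (69.2%, against 15.2% of all genes below). The 5 with the smallest p were Xpnpep2 at −0.85 (SE 0.26), Dpep1 at −0.59 (SE 0.21), Mme at −0.45 (SE 0.16), the aminopeptidase N gene Anpep at −0.39 (SE 0.14) and Lap3 at −0.47 (SE 0.18). Anpep, which frees amino acids from peptides at the brush border, read 2141 and 1608 in the null male and female, against 2641 and 2356 in the control female and male. Again the female null array was the lowest.

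Of other amino acid and peptide carriers, 8 were tested, with a median of 0.08. The mitochondrial carriers Slc25a13, which moves aspartate and glutamate, at −0.61 (SE 0.24) and Slc25a15, which moves ornithine, at −0.44 (SE 0.21) were lower without overlap. Slc25a22, Slc32a1 and Slc17a6 differed by −0.18, 0.24 and 0.19. None passed in limma. Enzymes of glutamine, glutamate and arginine metabolism were below 0 in 10 of 12, with a median of −0.15 and none called, and Gpt, alanine aminotransferase, had the smallest p at −0.41 (SE 0.16). Others were Otc at −0.31, Cps1 at −0.18, Arg2 at −0.40 and Glud1 at −0.19. Genes that set the ion gradients gave −0.29 for Pdzk1, −0.085 for Slc9a3r1 and −0.09 for the sodium pump subunit Atp1b1. The transporter partner Cltrn did not pass the filter.

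Genes of the amino acid response, which cells raise through ATF4 when amino acids are short, were above 0 in 14 of 20, with a median of 0.16, at 0.13 between the males and 0.28 between the females. None was called in limma. Those with the smallest p were Cth, a cysteine synthesis enzyme, at −0.97 (SE 0.24), and 4 above 0: Eif4ebp1 at 0.69 (SE 0.21), Chac1, which degrades glutathione, at 0.80 (SE 0.25), Nupr1 at 0.72 (SE 0.27) and Trib3 at 0.54 (SE 0.21). Chac1 read 41.3 and 39.6 in null animals and 17.7 and 17.0 in controls, with the controls inside the range of absent transcripts.

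Other measures moved with these values, and their part in them was not tested. Of 10 enterocyte markers tested, 8 were below 0, with a median of −0.15 and Krt20 at −0.36 (SE 0.12). The summed luminal carriers stood at 2412 and 2205 in null animals and 3029 and 2804 in controls. All measured enterocyte markers summed to 39623 and 38819.8 in the null male and female, against 41219.7 and 41878 in the control female and male. That sum weighs its brightest genes most. Apoa1 read 10450 and 9865 in the null male and female, against 11137 and 10444 in the control female and male. Except on the null female array, Apoa1 was the highest reading. Quantile normalization makes the highest value equal on every array, so the sum does not measure enterocyte content. Smooth muscle markers had a median of 0.38 that was −0.16 between the males and 0.73 between the females, with summed intensities of 3181 and 4563 in null animals and 2951 and 3218 in controls. Fibroblast markers likewise stood at −0.38 between the males and 0.52 between the females. The null female had the highest smooth muscle sum and the lowest readings of Slc7a7, Slc3a2, Slc15a1 and Anpep. Of these, Slc7a7, Slc15a1 and Anpep were lower in both null animals than in both controls, as were Slc6a20a, Slc1a1 and Slc7a8. For Slc3a2 the groups overlapped. Whether muscle content bears on any of these values was not tested. T cell markers were below 0 in 8 of 8 (median −0.40, 1005 and 803 summed in null animals, 1353 and 1239 in controls). Goblet markers were above 0 in 8 of 9 (median 0.50, 25235 and 21842 in null animals, 18292 and 18516 in controls). Other lists had medians of 0.14 for B cells, 0.13 for myeloid cells, −0.03 for enteroendocrine cells, 0.03 for Paneth cells, 0.22 for endothelium, 0.19 for pancreatic acini and 0.20 for red cells. Medians near 0 covered wide ranges in 2 lists: Paneth markers ran from −3.63 for Pla2g2a (adjusted p 0.0277 in limma) to 1.22 for Mmp7, with 4 of 4 at an unadjusted p under 0.05, and enteroendocrine markers from −1.61 for Nts to 1.70 for Ghrl, with 3 of 13. No marker list had a member at 0 on every array. The mixed directions of the distal and proximal small intestine lists, with medians of −0.09 and 0.11, do not say which segment each sample held.

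**Figure D5:**
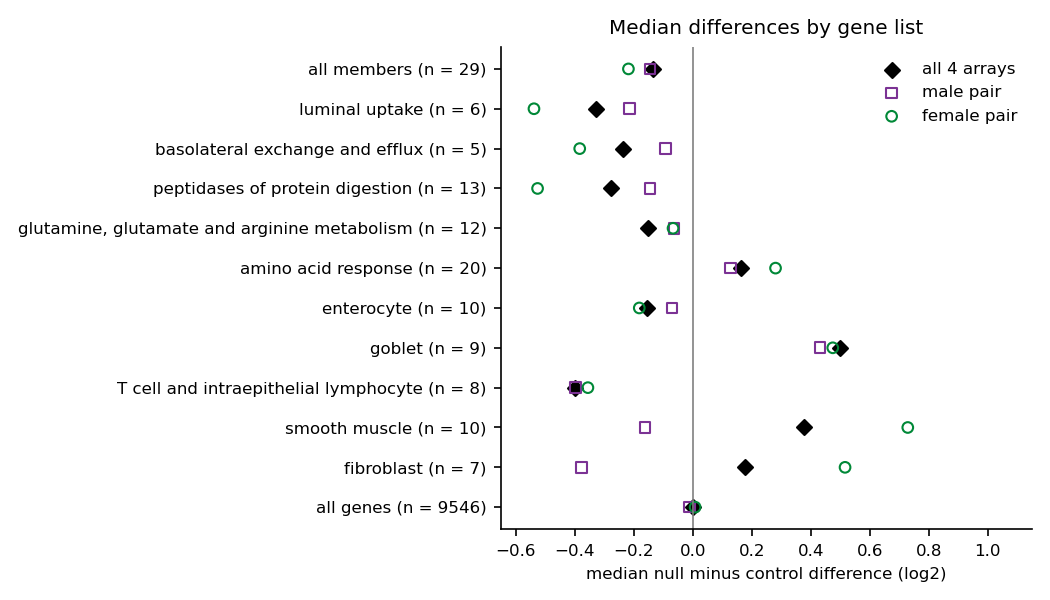
Median null minus control difference in log2 for transporter, pathway and marker lists and for all genes tested, with diamonds for all 4 arrays, squares for the male pair and circles for the female pair, and the number of genes tested in brackets. Luminal carriers and peptidases lie below 0 in both pairs. So do all members, basolateral carriers, glutamine, glutamate and arginine enzymes, enterocyte markers and T cell markers. Smooth muscle and fibroblast lists lie on opposite sides of 0 in the male and the female pair.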

How the data were processed

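The authors deposited linear intensities, a single value for each probe set on each array, some of them below 0. Per the labels, total RNA was extracted on Qiagen RNeasy columns and biotin-labelled for Affymetrix arrays. How the values were summarised and scaled is not given in the sources used here. No detection calls were used. The number of arrays, 2 a group, limits the precision.

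Gene names came from the platform annotation and were checked by Entrez identifier against RefSeq GRCm38.p6 (29 unmatched). Of 22626 probe sets that were not controls, 20380 had 1 gene. Array medians of log2(intensity + 16) differed by 0.23, above a limit of 0.2, so intensities were quantile normalized, floored at 0 and expressed as log2(intensity + 16). The 15838 brightest probe sets were tested with limma 3.58.1 (R 4.3.3; lmFit, eBayes with intensity trend), two-sided, Benjamini-Hochberg adjusted over all of them at 0.05, with 2 residual and 4.65 prior degrees of freedom. Intervals are 95% and from that fit. The added 16 makes differences of dim probe sets smaller than their true size.

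The members, gene lists and rule for named genes were chosen with earlier results of these data known. All luminal and basolateral members and the 10 members with the smallest p were given array by array, with up to 5 genes for each pathway list. Marker sums are of normalised intensities, taken over all measured genes of a list, and Pla2g2a of Paneth cells was the 1 listed marker past the threshold in limma. Python 3.11.15 and matplotlib 3.10.9 were used for summaries and plots. Protein sequences were not used here.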

Additional observations from a re-analysis of the deposited data

Results flagged for a closer look

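The males and the females pointed in opposite directions for 5 tested members, each by at least 0.25 on the log2 scale. Slc3a1 differed between null and control by 0.43 between the males and −0.44 between the females. Slc38a3 gave 0.43 for the males and −0.40 for the females, and Slc7a6 gave 0.35 and −0.32. Slc7a13 stood at 0.64 between the males and −0.29 between the females, and Slc43a3 at −0.28 and 0.48. Each pair is 1 null array and 1 control array, so the difference between the sexes was not tested. The control male and control female also differed in genotype, so sex and control genotype cannot be told apart here.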

How the results depend on the processing

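No member was called in limma under the other scalings, pseudocounts, filter, prior or without any of the 4 animals, and 2 were called with sex as a block, Slc6a13 and Slc6a20a. The count of probe sets called over the whole array, 2, was 29 with sex as a block and 1 when the prior had no trend. It was 0 to 29 when 1 animal was left out, a fit that assumes the lone animal to vary like the other group, with 29 without the null male and 0 without either control. The median over all members tested, −0.13, was −0.19 with a pseudocount of 1, −0.067 with one of 64 and −0.059 with the mean over the probe sets of a gene, and −0.17 to −0.077 when 1 animal was left out. For basolateral members it was −0.47 to −0.0071 when 1 animal was left out, the extremes without the null male and without the null female, and for luminal members −0.43 to −0.23. Without the filter on dim probe sets these medians were −0.11 for basolateral and −0.18 for luminal members. Of the 29 members tested, 17 kept their sign under every alternative run, and 14 of the 29 were put through them only after the data were seen. Leaving out 1 animal gave both signs for Slc3a1 (−0.27 to 0.27), Slc7a6 (−0.21 to 0.23), Slc38a1 (−0.20 to 0.13), Slc38a3 (−0.29 to 0.32), Slc43a3 (−0.16 to 0.36), Slc6a12 (−0.13 to 1.22), Slc6a3 (−0.26 to 0.12), Slc6a8 (−0.058 to 0.14), Slc6a9 (−0.36 to 0.091), Slc7a11 (−0.35 to 0.069) and Slc7a13 (−0.097 to 0.45). Values as deposited turned Slc7a6 to −0.027 and Slc38a3 to −0.021, and the mean over probe sets turned Slc38a10 to 0.054 and Slc6a8 to −0.059. The cause was not tested. The fit with sex as a block pairs 1 null and 1 control animal of each sex, and the controls of the pairs differ in genotype. Over all alternatives Slc6a20a ranged from −1.21 to −0.98, Slc1a1 from −1.11 to −0.65 and Slc7a8 from −0.75 to −0.55. Dim signal limits the 15 members outside the filter and the tested members with a reading inside the range of absent transcripts. These are Slc7a5, Slc6a2, Slc7a13, Slc43a3, Slc7a11, Slc6a9, Slc1a4 and Slc6a12.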
